A study of Homo sapiens with 9 samples.

Results

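Peaks of RNA polymerase II (RNAPII) that lay between the ends of 2 convergent genes were collected from 5 peak lists. A peak was a member when its summit lay between the ends of a plus-strand protein-coding gene and of a minus-strand protein-coding gene to its right, with the ends at most 5 kb apart, or up to 1 kb inside either gene. The summit also had to be more than 500 bp from every protein-coding transcription start site (TSS). In all, 2833 of 142069 peaks were members. The annotation held 1475 such gene pairs, and pairs whose windows overlapped were merged into 1363 zones, of which 1277 held a single pair.

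The lists came from chromatin immunoprecipitation and sequencing of RNAPII in the HEK293 line, derived from human embryonic kidney. In 3 libraries they carried a lentiviral short hairpin RNA (shRNA), which was a control hairpin, shRNA5 against RECQL5 or shRNA7 against RECQL5. The other libraries came from HEK293 T-REx cells, which carry the tetracycline repressor. They had been transfected and drug-selected with a plasmid for full-length RECQL5 under a promoter that doxycycline switches on, and were grown with 0.0 ng/ml or 1.0 ng/ml of the drug. Both doxycycline lists share these cells and the plasmid, and no library here combines doxycycline with cells that lack it. Whether the selected cells were a single clone is not given in the sources used here. Peaks of each hairpin library were called against an IgG library of the same hairpin, whereas both doxycycline lists shared an IgG library from untreated cells. Each group had 1 library, so no difference below has a replicate check, and no test between conditions was possible. The lists do not measure RECQL5 itself, and they give the 2 arms on different scales, so values were compared within an arm.

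Convergent genes are transcribed towards each other and meet tail to tail. RNAPII does not stop where the messenger RNA ends: the transcript is cut and polyadenylated behind it, and the polymerase runs on until the exonuclease XRN2 and slowing downstream of the polyadenylation site release it. Polymerases leaving the 2 genes of a pair therefore share the stretch between them, and RECQL5, a helicase of the RecQ family, binds RNAPII directly.

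The last 30 bases of both transcripts are shown for 3 of the zones that ranked highest by tags per kb over all 5 lists, because their zones held strong members in all lists. They are written 5′ to 3′ on the strand of the transcript, from GRCh37, with a polyadenylation hexamer (AATAAA or ATTAAA) in capitals where these bases hold it.
TRPV2, chr17:16340288-16340317, plus strand: tggtggcaaatatatattttcactaactaa
LRRC75A, chr17:16344891-16344920, minus strand: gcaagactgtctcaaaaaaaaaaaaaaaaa
PPAN-P2RY11, chr19:10225427-10225456, plus strand: gaagctgcctcctcaccctaggtgttgctg
EIF3G, chr19:10225690-10225719, minus strand: aagggcAATAAAgcagctccactctctcta
RNF40, chr16:30787599-30787628, plus strand: catacctAATAAAagtcggcatcaaaccac
ZNF629, chr16:30789777-30789806, minus strand: agttgaagagAATAAAgggaataagatttc

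Of these 6 ends, 3 held a hexamer in the letters shown. Among all 19834 annotated gene ends, 71.6% held AATAAA or ATTAAA on the transcript strand within the last 50 bases. The share was 72.8% (95% Wilson interval 71.2 to 74.4) at convergent ends and 73.2% (72.4 to 74.0) at lone ends, where no protein-coding gene lay within 5 kb beyond. It was 74.2% (71.9 to 76.4) at the 1422 convergent ends with a summit in at least 1 list and 71.5% (69.1 to 73.8) at the 1420 with none. These intervals overlapped, and a match to these letters is a description, not a cleavage site.

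The whole lists held between 5287 peaks (control shRNA) and 47060 peaks (no doxycycline), and between 842310 and 6698771 tags inside peaks. Their lengths differed within an arm, which bears on every count below. For this reason some values are also given after the lists of an arm were cut to the length of its shortest, strongest significance score first. These are the member folds, member shares, overlaps, ratios of convergent to lone ends and shares of zones with a member. The rest, among them covered sequence, summit positions, peak lengths, TSS states and zone patterns across lists, was not recomputed at equal length. Library totals were not used here, so depth is known only as tags inside peaks. All intervals are at 95% and cover counting error only.

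The control shRNA list held 204 members, which was 3.86% (3.37 to 4.41) of its peaks. Upon shRNA5 there were 540 members, 2.28% (2.10 to 2.48) of that list. Upon shRNA7 there were 561, 1.75% (1.61 to 1.90) of that list. The hairpin lists thus held more members than the control, but members took a smaller share of them. Without doxycycline there were 884 members and with it 644, which made 1.88% (1.76 to 2.01) and 1.90% (1.76 to 2.05) of the lists. Here the number differed and the share did not. Counted as places rather than peaks, 14.4%, 35.3% and 38.0% of the zones held a member with the control hairpin, with shRNA5 and with shRNA7. The share was 40.4% without doxycycline and 30.1% with it. At equal list length the hairpin-arm shares were 14.4% (12.6 to 16.3), 16.7% (14.8 to 18.7) and 19.3% (17.3 to 21.5). The shRNA5 interval then overlapped that of the control, and the shRNA7 interval did not. In the doxycycline arm the shares at equal length were 33.5% and 30.1%, with overlapping intervals. More than 1 member in a zone was common only in the doxycycline arm, in 239 and 151 zones, against 6, 54 and 41 in the hairpin arm. A member held between 9 and 4032 tags.

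Members were 2.65-fold (2.25 to 3.11) more numerous upon shRNA5 than in the control, while all other peaks were 4.56-fold (4.42 to 4.70) more numerous. Upon shRNA7 the fold was 2.75 (2.34 to 3.23) for members and 6.21 (6.03 to 6.40) for all other peaks. Of the 32124 shRNA7 peaks, 21639 had a false discovery rate of at most 5%, whereas all shRNA5 peaks did. With this filter the shRNA7 folds were 2.35 for members and 4.17 for all other peaks. Both were then below the shRNA5 folds, which stayed at 2.65 and 4.56. In the full lists, members between convergent ends therefore differed less from the control than RNAPII peaks elsewhere did. This order depended on list length. With the hairpin arm at 5287 peaks a list, the fold for members was 1.12 (0.926 to 1.35) upon shRNA5 and 1.29 (1.07 to 1.55) upon shRNA7, beside 0.995 and 0.988 for all other peaks. Among peaks with a fold enrichment over background of at least 10, the fold for members was 0.988 (0.799 to 1.22) upon shRNA5 and 1.36 (1.12 to 1.66) upon shRNA7, beside 1.30 and 1.95. With doxycycline the fold was 0.729 (0.658 to 0.806) for members and 0.720 (0.710 to 0.730) for all other peaks. That difference between members and other peaks was within counting error.

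**Figure D1:**
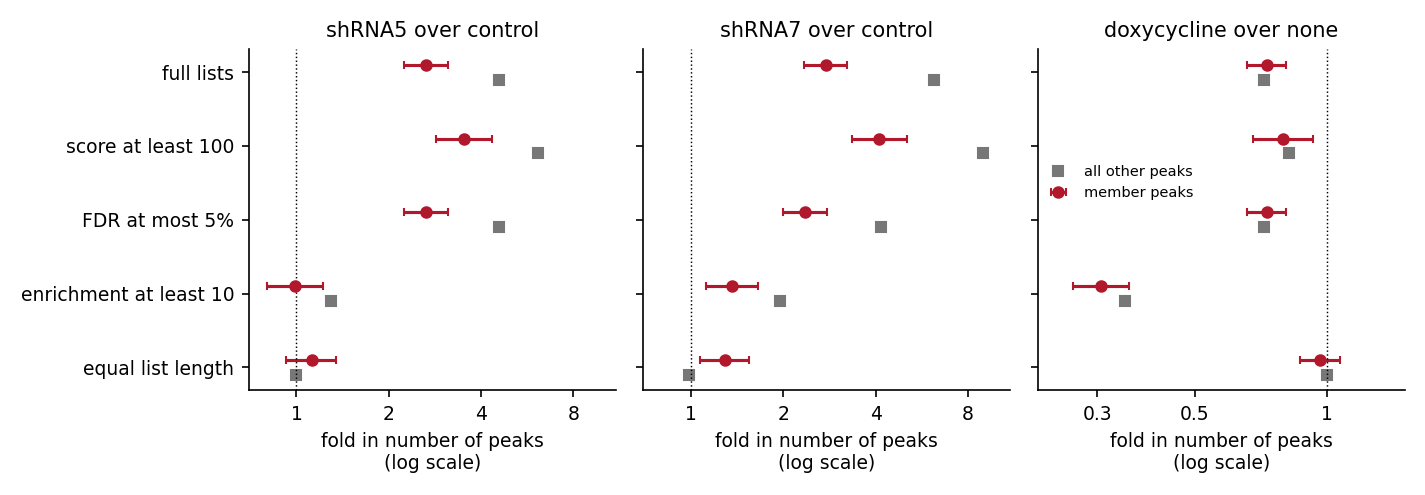
Fold in number of peaks between lists, on a log scale, for member peaks (red circles, bars are 95% counting intervals) and all other peaks (grey squares), in the full lists and after each of 4 filters. Members lie below the other peaks upon both hairpins in the full lists and under 3 filters, and above them at equal list length, where the folds are 1.12 and 1.29. At equal list length the cut itself nearly fixes the value for all other peaks.

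Counted by an overlap of at least 1 bp, member peaks recurred between the full lists more often than peaks in general did, and this turned when more of both peaks had to be shared. Of the control members, 99.5% (97.3 to 99.9) were overlapped by an shRNA5 peak, beside 97.4% of all control peaks, and 92.2% (87.6 to 95.1) by an shRNA7 peak, beside 88.4%. For the control members these differences were within counting error. In the other direction, 33.1% (29.3 to 37.2) of the shRNA5 members were overlapped by a control peak, beside 19.0% of all shRNA5 peaks. For the shRNA7 members the share was 27.5% (23.9 to 31.3), beside 11.7% of all shRNA7 peaks. Convergent ends that held a peak upon depletion thus had a peak in the control list more often than the average peak upon depletion did. Between the hairpins, 91.7% (89.0 to 93.7) of shRNA5 members were overlapped by an shRNA7 peak, beside 85.2%, and 70.6% (66.7 to 74.2) of shRNA7 members by an shRNA5 peak, beside 51.9%. In the doxycycline arm 69.9% (66.2 to 73.3) of the members with the drug were overlapped by a peak without it, beside 61.8% of all peaks, and 52.8% (49.5 to 56.1) of those without it by a peak with it, beside 45.6%. Members upon the hairpins were also longer than other peaks, which raises the chance of an overlap by 1 bp. When at least 50% of both peaks had to be shared, each of the 4 overlaps recomputed was below that of all peaks. It was 38.7% beside 54.2% for control members with shRNA5 and 7.35% beside 28.5% with shRNA7. It was 37% beside 46.0% for shRNA5 members with shRNA7, and 29.8% beside 38.5% for members with doxycycline with peaks without it. Sharing 50% of both needs peaks of similar length. Median lengths were 2370 bp for control members and 5052 bp for shRNA7 members, beside 1895 bp and 2005 bp for all other peaks. How far length set these overlaps was not tested. With an enrichment of at least 10, the shares were 75.3% beside 77.8%, 80.6% beside 80.7%, 77.4% beside 79.5% and 87.7% beside 82.3% in this order. With a significance score of at least 100, members with doxycycline stood at 71.1% beside 74.2%. At equal list length members were above all peaks in each case, at 89.7% beside 73.3%, 77.5% beside 59.6%, 83.3% beside 66.5% and 65.5% beside 56.1%. An overlapping peak was not always a member itself: of the 203 control members overlapped by an shRNA5 peak, 54 met only peaks whose summit lay outside a zone or within 500 bp of a TSS.

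To set convergent ends beside other gene ends in a window of one size, each gene of at least 2 kb was asked for a summit from 1 kb inside to 1 kb beyond its end, more than 500 bp from any protein-coding TSS. Only genes with a peak within 500 bp of their own TSS in the same list were counted. That peak could be the same one that gave the summit. In the control list 18.3% (15.2 to 21.8) of 531 convergent ends had such a summit and 9.10% (7.76 to 10.6) of 1550 lone ends. The shares were 27.1% and 16.6% upon shRNA5 and 25.6% and 18.4% upon shRNA7. They were 37.6% and 15.1% without doxycycline and 31.7% and 12.9% with it. In each list convergent ends held a summit more often than lone ends, by 2.01-fold (1.58 to 2.55), 1.64-fold (1.47 to 1.83), 1.39-fold (1.25 to 1.54), 2.48-fold (2.28 to 2.71) and 2.47-fold (2.22 to 2.75) in this order. Each end was scored separately, so where 2 ends lay close, 1 summit could count for both genes of a pair. The intervals treat such ends as independent. With the window kept to the last 1 kb inside the gene, which the genes of a pair do not share, the ratios were 2.03, 1.89, 1.57, 2.38 and 2.15. Tandem ends, where the next gene within 5 kb lay on the same strand, stood at 9.77%, 12.5%, 14.0%, 25% and 16.5%. They were below convergent ends in all 5 lists, and below lone ends upon both hairpins. The TSS of the next gene can lie in or near the window at a tandem end. Summits within 500 bp of it were dropped, so less of the window could hold a summit there. This was not corrected for.

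**Figure D2:**
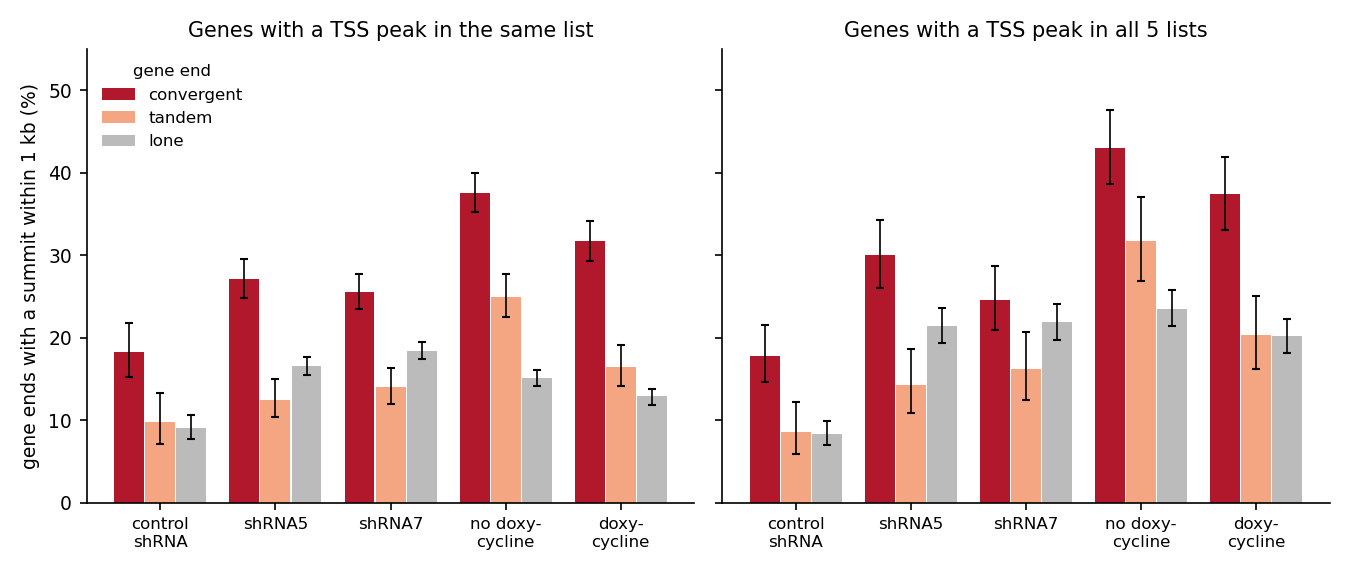
Share of gene ends with a summit within 1 kb (percent, bars start at 0, error bars are 95% Wilson intervals) for convergent, tandem and lone ends in the 5 lists, for genes with a TSS peak in the same list (left) and in all 5 lists (right). The convergent bar is the tallest in each list; upon shRNA7 among genes with a TSS peak in all lists it is 24.6%, beside 21.9% at lone ends, and these intervals overlap.

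In the full lists the excess at convergent ends was smaller upon the hairpins than in the control, and this order depended on the filter. The shRNA5 interval overlapped that of the control, both for genes with a TSS peak in the same list and for those with one in all 5 lists. The shRNA7 interval did not. Among genes with a TSS peak in all 5 lists, which are the same genes in each, the ratio was 2.13 (1.65 to 2.77) in the control, 1.4 (1.18 to 1.66) upon shRNA5 and 1.12 (0.932 to 1.36) upon shRNA7. It was 1.83 (1.59 to 2.11) without doxycycline and 1.85 (1.58 to 2.17) with it. At equal list length the hairpin arm no longer showed this order, with ratios of 2.01 in the control, 2.27 upon shRNA5 and 2.14 upon shRNA7. With an enrichment of at least 10 they were 2.16, 2.79 and 2.36. Where the score had to reach 100 they were 1.76, 1.88 and 1.52. The number of convergent ends with a summit, whatever the TSS, was 240 in the control, 547 upon shRNA5 and 605 upon shRNA7, folds of 2.28 (1.96 to 2.65) and 2.52 (2.17 to 2.93). At lone ends the folds were 3.99 (3.45 to 4.61) and 5.30 (4.60 to 6.11). Tandem ends, with folds of 2.29 (1.71 to 3.06) and 2.51 (1.88 to 3.34), stood where convergent ends did. With doxycycline the folds were 0.725 (0.652 to 0.805), 0.615 (0.510 to 0.741) and 0.697 (0.634 to 0.766) at convergent, tandem and lone ends, and these intervals overlapped. Convergent genes were shorter than lone genes, with medians of 21.2 kb and 33.9 kb. In genes of 10 to 50 kb the ratio was 2.12 (1.52 to 2.95) in the control, upon the hairpins 1.32 (1.13 to 1.54) and 1.18 (1.03 to 1.37), and without and with doxycycline 2.04 (1.82 to 2.30) and 1.96 (1.70 to 2.25).

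The sequence covered by peaks, which does not turn on where the summit falls, was compared as well. Peaks covered 13.8% of the bases in the zones with the control hairpin, 37.3% with shRNA5 and 52.2% with shRNA7. They covered 21.3% without doxycycline and 17.3% with it. More than 1 in 2 zone bases thus lay in a peak upon shRNA7. The folds over the control were 2.70 and 3.77 in the zones and 3.93 and 6.40 in the windows at lone ends. The covered share at convergent ends was 4.54, 3.10, 2.68, 4.06 and 3.98 times that at lone ends in the 5 lists. For genes with a TSS peak in all lists it was 2.27, 1.66, 1.48, 2.25 and 2.10 times. In this set of genes peaks covered 77.9% of the windows at convergent ends upon shRNA7, so little of them was left without a peak.

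The distance between the 2 gene ends went with the members differently in the control and the hairpin lists. In the control list 15.6% (12.1 to 19.9) of the 327 zones with ends under 500 bp apart held a member, and 12.7% (10.2 to 15.7) of the 567 zones with ends 2 to 5 kb apart. Upon shRNA5 these shares were 23.2% (19.0 to 28.1) and 41.4% (37.5 to 45.5), and upon shRNA7 26.6% (22.1 to 31.6) and 45.1% (41.1 to 49.3). Tight and wide zones were thus alike in the control, whereas upon the hairpins wide zones held a member more often. Without doxycycline the shares were 38.2% (33.1 to 43.6) and 42.9% (38.8 to 47.0), and with it 32.1% (27.3 to 37.4) and 29.6% (26.0 to 33.5), with overlapping intervals. At equal list length the shares for tight and wide zones were 13.1% (9.91 to 17.2) and 17.8% (14.9 to 21.2) upon shRNA5, with overlapping intervals. They were 15.0% (11.5 to 19.3) and 22.0% (18.8 to 25.6) upon shRNA7, also with overlapping intervals. A wide zone holds more bases for a summit to fall in, and this was not corrected for.

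**Figure D3:**
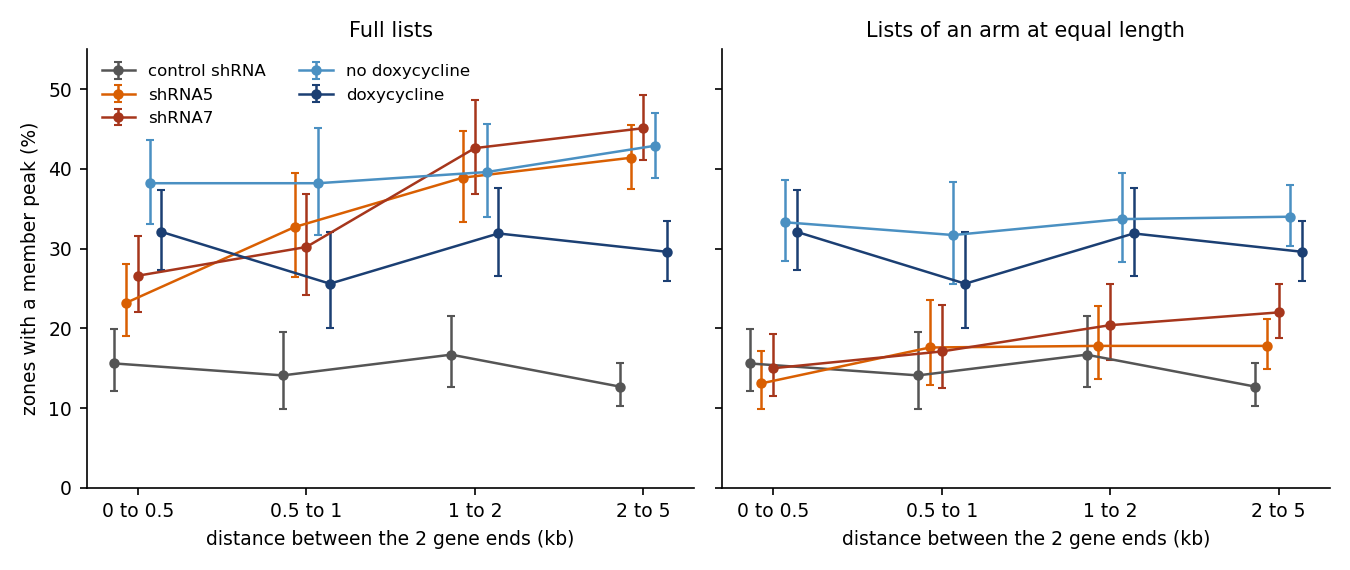
Share of zones with a member peak (percent, error bars are 95% Wilson intervals) against the distance between the 2 gene ends (kb), in the full lists (left) and with the lists of an arm at equal length (right). In the full lists shRNA5 and shRNA7 lie at 23.2% and 26.6% in the tightest zones and at 41.4% and 45.1% in the widest, while the control stays between 12.7% and 16.7%.

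Summits were spread over the whole of a zone. In zones of 1 pair, 45.8% (38.7 to 53.1) of the control members had their summit between the ends, where 49.0% of the zone bases outside TSS regions lay. The share was 54.2% (49.8 to 58.4) upon shRNA5 and 56.0% (51.7 to 60.2) upon shRNA7, and 48.7% (45.2 to 52.2) and 49.7% (45.7 to 53.8) without and with doxycycline. The gap was above its share of bases upon the hairpins and near it in the other lists. The median summit lay 51.0 bp inside the nearer end in the control, with an interval from 153 bp inside to 66.0 bp beyond it. It lay 72.0 bp (2 bp inside to 180 bp beyond) beyond that end upon shRNA5 and 131 bp (42.0 to 230) beyond it upon shRNA7. In the doxycycline arm it lay 23 bp (105 bp inside to 29 bp beyond) inside the end without the drug and 9 bp (80.0 bp inside to 71.0 bp beyond) inside it with the drug. Between 45.4% and 52.3% of the summits were within 500 bp of a gene end in the 5 lists. The share of zone bases that near an end was not computed, so these values do not show a gathering at the ends.

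By annotation, 42.6% (36.1 to 49.5) of the control members had their summit in an untranslated exon of some protein-coding transcript, and between 37.4% and 38.9% did in the other lists. Among other peaks over 500 bp from a TSS this share was between 7.04% and 15.3%, and most of those lay in introns. Since the zones were drawn around gene ends, this follows from the rule. Another protein-coding gene lay in the gap between the named ends in 97 zones (7.12%), and between 4.28% and 9.39% of the members were in such zones. Between 4.81% and 8.82% of the members lay within 500 bp of the start of a transcript of a non-coding gene, beside 5.25% to 11.9% of other peaks over 500 bp from a coding TSS. In each list the interval of the members held the value of those other peaks. The AT content over 2 kb around the summit had a median of 50% in the control members, beside 55.4% at other summits in protein-coding genes. It was 52.3% beside 58.6% upon shRNA5, 52.6% beside 60.0% upon shRNA7, 47.9% beside 55.2% without doxycycline and 50.5% beside 57.2% with it. Centres of zones with no member in any list had 50.5% (49.0 to 51.8) and those with a member 50.7% (49.8 to 51.7), so the AT content of the zones did not differ with the presence of a member beyond counting error.

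Members stood out by their breadth upon shRNA7. Their median length was 5052 bp (4459 to 5477), beside 2005 bp (1989 to 2024) for all other peaks of that list. In the control list the medians were 2370 bp (2189 to 2696) and 1895 bp (1866 to 1923), and upon shRNA5 2658 bp (2419 to 3018) and 1824 bp (1809 to 1840). In the doxycycline arm members measured 654 bp (626 to 686) and 700 bp (651 to 749) without and with the drug, beside 621 bp and 689 bp. Members lie over 500 bp from a coding TSS by rule, so they were also set beside the other peaks that do. Those measured 2195 bp (2143 to 2259) in the control, where the intervals overlapped, 1826 bp (1808 to 1845) upon shRNA5 and 1975 bp (1954 to 1997) upon shRNA7. They measured 562 bp (560 to 565) without doxycycline and 622 bp (617 to 626) with it. Against these peaks members were therefore longer beyond counting error in each list but the control, with the widest difference upon shRNA7. The median density of members was 54.7 tags per kb (52.8 to 56.7) upon shRNA7, beside 42.7 (42.6 to 42.9) for other peaks over 500 bp from a TSS. It was 49.3 (47.5 to 51.0) beside 43.9 (43.7 to 44) upon shRNA5. In the control it was 46.0 (44 to 46.9), between the 45.1 (44.8 to 45.5) of those peaks and the 48.3 (48.0 to 48.5) of all other peaks. A member reached both gene ends in 49.0% (control), 42.8% (shRNA5) and 56.9% (shRNA7) of cases, and in 10.6% and 10.9% in the doxycycline arm. A member extended into the 500 bp around a protein-coding TSS in 13.2%, 16.7% and 23.4% of cases in the hairpin arm and in 5.54% and 5.12% in the doxycycline arm. Other peaks with their summit over 500 bp from a TSS did so in 14.5%, 9.15% and 7.65% of cases and in 3.60% and 3.77%. Members thus reached a TSS region more often beyond counting error upon both hairpins and without doxycycline. In the control (9.26 to 18.6 for members) and with doxycycline (3.67 to 7.11) the intervals overlapped.

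**Figure D4:**
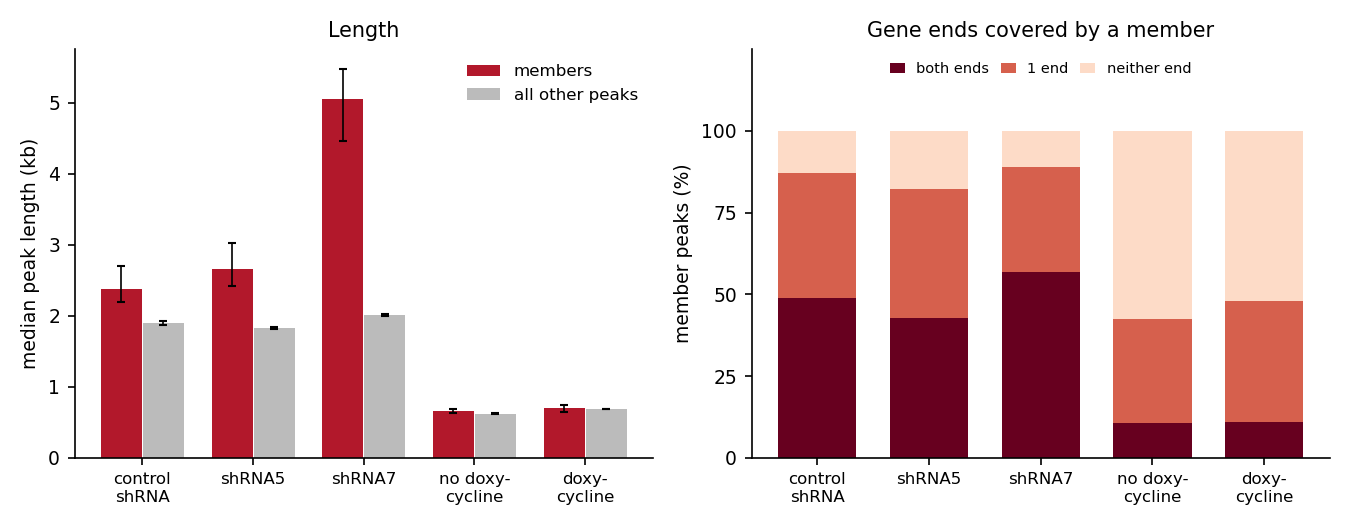
Median length in kb of member peaks and of all other peaks in each list (left, bars start at 0, error bars are 95% order-statistic intervals), and share of the members that cover both gene ends, 1 end or neither (right, percent). The tallest bar is that of shRNA7 members at 5052 bp, and members cover both ends in 56.9% of cases there against 10.6% without doxycycline.

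A member was more frequent where both genes had a peak at their starts. Any peak that touched the 500 bp around a TSS counted as a TSS peak, so a long member could itself be that peak. Such cases were not set apart, so the 2 states are not independent. In the control list 38.0% (27.6 to 49.7) of the 71 zones whose 2 genes both had a TSS peak held a member, 24.3% (20.4 to 28.7) of those with a TSS peak at a single gene, and 7.91% (6.31 to 9.88) of those with none. Upon shRNA5 the shares were 52.5%, 38.2% and 13.6%, and upon shRNA7 48.0%, 42.0% and 13.4%. Without doxycycline they were 57.9%, 35.5% and 12.1%, and with it 52.8%, 27.4% and 8.26%. The order was the same in each of the 5 lists, although upon shRNA7 the intervals for both genes (43.6 to 52.5) and a single gene (38.0 to 46.0) overlapped. Zones with no TSS peak at either gene made up 35.7% of the zones with a member in the control list and between 5.26% and 10.8% in the others. Among all zones, such zones made up 64.9% in the control list, which held the fewest peaks, and between 17.6% and 28.0% in the others, so they were a smaller share of the zones with a member in each list.

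Of the 1363 zones, 850 held a member in at least 1 list, 513 in none and 85 in all 5. Examples were taken from the zones among these 85 with the highest density in every list, and 7 of them are described. At TRPV2-LRRC75A on chromosome 17, where TRPV2 is a cation channel, the densities were 81.8, 120, 129, 80.6 and 91.5 tags per kb. No list had a peak at the TSS of either gene. Its summits lay more than 2 kb from both ends and 1 to 7 bp from a transcript start of SNHG29, a long non-coding RNA gene. A member shared by all 5 lists thus sat on the start of a non-coding gene that the rule, which looks at coding genes only, did not remove.

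PPAN-P2RY11 and EIF3G on chromosome 19 have ends 233 bp apart, and their zone also holds the gene P2RY11. EIF3G is a subunit of the translation initiation factor eIF3. The densities were 80.3, 134, 138, 60.3 and 74.3 tags per kb, and the summits lay 343 to 720 bp inside EIF3G except upon shRNA7, where it lay farther left. RNF40-ZNF629 on chromosome 16 paired a histone H2B ubiquitin ligase with a zinc finger gene. Its densest members had 71.7, 109, 113, 62.5 and 54.0 tags per kb. Their summits lay 298 to 505 bp from a start of ENSG00000280211, a gene not annotated as protein-coding, except upon shRNA7, where the distance was 1420 bp. Both doxycycline-arm lists split this zone into 2 members where each hairpin-arm list had a single peak of 9947 bp, 12432 bp or 25123 bp.

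SRSF9, an SR family splicing factor, faced the gene ENSG00000111780, for which the annotation gives no symbol, with GATC in the same gap on chromosome 12. The member there had 70.1, 107, 131, 54.8 and 67.4 tags per kb, with the summit within 637 bp of the SRSF9 end. DGCR8, the partner of DROSHA in microRNA processing, and TRMT2A, a transfer RNA methyltransferase, end 2 bp apart on chromosome 22. Their member had 69.3, 86.0, 106, 70.2 and 78.5 tags per kb, and its summits fell inside DGCR8 within a span from 378 to 508 bp of its end. The 5 summits thus lay close together, 381 to 511 bp from a transcript start of the long non-coding RNA gene ENSG00000243762. PRRC2A-BAG6 on chromosome 6, where BAG6 is a chaperone of newly made membrane proteins, held the member with most tags of the control list (1121) and of the shRNA5 list (2307). Its densities were 71.0, 99.6, 149, 38.4 and 62.2 tags per kb. RPAIN-C1QBP on chromosome 17, where RPAIN carries replication protein A into the nucleus, had 73.9, 86.6, 115, 37.1 and 56.8 tags per kb. Its member summits lay 142 to 579 bp from a transcript start of the long non-coding RNA gene ENSG00000263272. In each of these 7 zones the member was denser upon both hairpins than in the control. The zones had been picked for their high density in every list. The median density of all control members was 46.0 tags per kb, beside 49.3 upon shRNA5 and 54.7 upon shRNA7. For all other peaks it went the other way, at 48.3, 45.9 and 45.7. The lists have 1 library each and no library totals, so how far the density of members upon the hairpins follows depth was not tested. With doxycycline the member was denser than without in 6 of the 7 zones, while RNF40-ZNF629 went the other way. Over all members the median was 22.2 tags per kb (21.8 to 22.6) without the drug and 31.9 (31.5 to 32.3) with it, so the denser members with doxycycline were not particular to these zones.

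**Figure D5:**
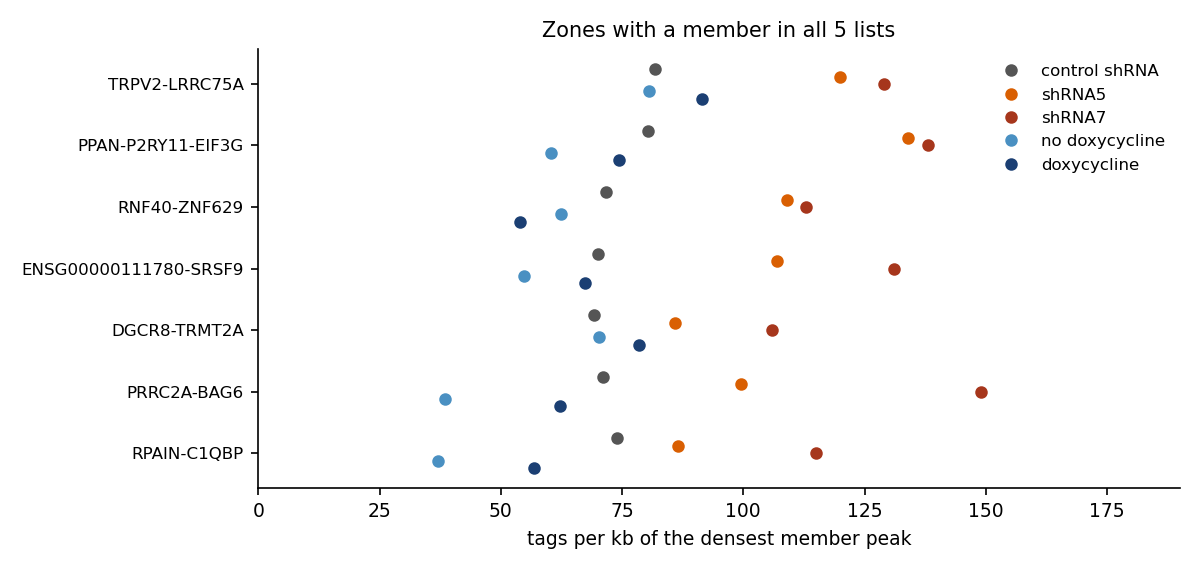
Tags per kb of the densest member peak in each of the 7 zones, with 1 point for each list. The shRNA5 and shRNA7 points lie to the right of the control in all 7 zones, and the highest point is PRRC2A-BAG6 upon shRNA7 at 149 tags per kb.

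In 35 zones the control list held a member and neither hairpin list did. All 35 were still touched by an shRNA5 peak and 30 by an shRNA7 peak, with the summit outside the zone or near a TSS, while the rest held no shRNA7 peak. The 3 with most tags were TRIM28-CHMP2A, DNAJA1-SMU1 and NEXN-FUBP1. At TRIM28, a corepressor recruited by zinc finger proteins, and CHMP2A, a subunit of the ESCRT-III complex, the control member had 566 tags. The zone was covered upon shRNA5 and shRNA7 by peaks of 950 and 3268 tags with their summits outside it or near a TSS. DNAJA1, a heat shock protein 40 co-chaperone, and SMU1, a splicing factor, had a control member of 554 tags and hairpin peaks of 2157 and 2681 tags that spanned 22308 bp and 25402 bp. At NEXN-FUBP1, where FUBP1 binds single-stranded DNA upstream of MYC, the control member had 495 tags, and shRNA5 gave a peak of 1288 tags. No shRNA7 peak touched that zone.

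In 223 zones both hairpin lists held a member and the control list did not, and only 19 of these were touched by a control peak. The 5 with most tags were all among those 19, so these are zones where the peak was already there and its summit lay elsewhere. At TUBB-FLOT1 (β-tubulin and the membrane protein flotillin-1) the members had 1350 and 4032 tags, the latter the most of any shRNA7 member, and the control peak of 748 tags had its summit near the TUBB start. At TRIM41-RACK1, where RACK1 is a scaffold protein of the small ribosomal subunit, they had 2133 and 3003 tags beside a control peak of 1124 tags. The summit lay in an untranslated exon outside the zone in the control, and 554 and 396 bp beyond the TRIM41 end upon the hairpins. The other 3 were CLK3-EDC3 (a kinase of SR proteins and an mRNA decapping factor), SYNGR2-TK1 (a vesicle protein and thymidine kinase) and CNOT3-TMC4, where CNOT3 is a subunit of the CCR4-NOT deadenylase. Their members had between 1073 and 2568 tags, and control peaks of 304, 454 and 450 tags touched these zones.

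Of the same 223 zones, 67 (30%) held a member without doxycycline and none with it, and 19 (8.52%) held a member only with it. A further 75 had a member in both doxycycline-arm lists and 62 in neither. Over all 1363 zones, 227 (16.7%) held a member only without doxycycline and 86 (6.31%) only with it. Zones with a member only without the drug thus outnumbered those with a member only with it, both within the 223 and over all zones. The 4 with most tags of the 67 were CLK3-EDC3, LONP2-SIAH1, CACYBP-MRPS14 and CENPS-CORT-DFFA. LONP2 is a peroxisomal protease and SIAH1 a ubiquitin ligase. Their zone held no control peak, members of 625 tags upon shRNA5 and of 845 and 46 tags upon shRNA7, and members of 9 and 10 tags without doxycycline. At CACYBP-MRPS14, where MRPS14 is a mitochondrial ribosomal protein, the members had 356 and 996 tags upon the hairpins and 12 and 25 tags without doxycycline. A control peak of 239 tags touched this zone, with its summit outside it. The zone that holds DFFA, the inhibitor of the apoptotic nuclease CAD, had 2 members upon each hairpin, of 331 and 126 and of 600 and 303 tags, and 2 members of 9 tags without doxycycline. The last 3 zones therefore rested on few tags in the doxycycline arm, whereas CLK3-EDC3 had 211 tags without the drug and was covered with it by a peak of 403 tags with its summit elsewhere.

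Among all zones with a member only without doxycycline, the 3 with most tags were EIF5A-NEURL4, CDT1-APRT and ARF1-C1orf35. EIF5A is a translation factor, CDT1 licenses replication origins, and ARF1 is a GTPase of the Golgi. The member at EIF5A-NEURL4 had 793 tags, the most of any member without doxycycline, while the peak with the drug had 945 tags. The summit of the latter lay farther right, within 500 bp of a coding TSS, in a gap that also holds the gene GPS2. CDT1-APRT held a member of 686 tags without the drug and a peak of 802 tags with it. ARF1-C1orf35 held members of 374 and 103 tags without it and a peak of 1305 tags with it. All 3 zones thus held RNAPII in both lists. The same was true for the 3 zones with a member only with the drug, ZSWIM8-NDST2, HNRNPH3-RUFY2 and SRRT-UFSP1. ZSWIM8 is a ubiquitin ligase subunit that acts in microRNA decay, HNRNPH3 an RNA-binding protein and SRRT a partner of the nuclear cap-binding complex. Their members had 382, 341 and 330 tags, beside peaks of 324, 304 and 529 tags without the drug. Over all such zones, 62 of the 227 and 35 of the 86 were touched by a peak of the other list. The member with most tags in the doxycycline list was at DGCR8-TRMT2A, with 860.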

How the data were processed

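RNAPII peaks in HEK293 cells were taken from the 5 lists the authors deposited, 1 for each RNAPII library; the 4 IgG libraries entered as background of the authors' peak calls. Per the submitters' processing notes the tools were CASAVA 1.8, Bowtie 0.12.7 and MACS 1.4.2, on hg19 (GRCh37). Each library was called separately. The deposited tag number of a peak is a raw count of reads. The deposited significance score is the −log10 of the authors' p-value, multiplied by 10, and the lowest in the lists was 50. The fold enrichment is the authors' ratio of the peak over its local background. The false discovery rate is deposited as a percent. Positions are as deposited, from 1, and the summit is start + summit − 1.

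Genes were the longest protein-coding transcripts of GENCODE on GRCh37, and all 142069 peaks ended within its chromosomes. The functions were tested on simulated data. Python 3.11.15, numpy 2.4.6, pandas 2.3.3, scipy 1.17.1 and pysam 0.24.0 were used. Shares have Wilson intervals, folds the same intervals turned into odds, ratios of shares a log-normal interval, and medians order-statistic intervals. With 1 library per group no test was run. Named zones carry the pair with the smallest gap. They were the 8 zones with a member in all 5 lists whose lowest percentile of tags per kb was highest (1 of these is not reported here), and, for each pattern across lists, the 3 to 5 with most tags, together with the member with most tags of each list. Alternatives were filters on score, FDR and enrichment, equal list length, and other gaps, margins, positions, TSS sets, gene ends and overlaps. The members and lists were chosen with earlier results of these data known.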

Additional observations from a re-analysis of the deposited data

How the results depend on the processing

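With 1 library per group, there is no replicate to leave out. No paired analysis was possible because there is a single library in each group. Of 127 recomputed values, 72 stayed within the counting interval of the value reported, 54 moved out of it and 1 changed direction. The cause was not tested, except that fewer peaks or genes enter under each filter.

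With peaks of a significance score of at least 100, the member folds were 3.52 (shRNA5) and 4.11 (shRNA7), members made 5.06%, 2.96% and 2.38% of the control, shRNA5 and shRNA7 lists, and the ratio of convergent to lone ends was 1.88 upon shRNA5, 3.31 without doxycycline and 2.77 with it. An FDR of at most 5% gave 2.22% members upon shRNA7, beside 2.28% upon shRNA5, and a shRNA7 fold of 2.35. With an enrichment of 10 or more the shRNA5 fold changed direction to 0.988, the shRNA7 fold was 1.36 and the doxycycline fold 0.306. Members then made 3.04%, 2.81% and 1.71% of the shRNA5, shRNA7 and doxycycline lists, whose ratios were 2.79, 2.36 and 2.96. Overlaps were 75.3% and 80.6% of control members (by shRNA5 and shRNA7), 77.4% of shRNA5 members (by shRNA7) and 87.7% of doxycycline members (by no doxycycline).

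At equal list length the folds were 1.12, 1.29 and 0.964, the member shares 4.31% and 4.97% upon the hairpins, the ratios 2.27 (shRNA5), 2.14 (shRNA7) and 2.79 (no doxycycline), and the overlaps 89.7%, 77.5%, 83.3% and 65.5% in the order above, beside 73.3%, 59.6%, 66.5% and 56.1% of all peaks. With 50% of both peaks shared they were 38.7%, 7.35%, 37% and 29.8%. With gene ends at most 2 kb apart the folds were 2.07 and 2.16 upon the hairpins and the control ratio 2.66. Summits strictly between the ends gave a fold of 3.26 upon shRNA7, and peak midpoints a ratio of 1.25 upon shRNA7.

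The following were chosen after seeing the data. Genes with a TSS peak in all 5 lists gave ratios of 1.4 (shRNA5), 1.12 (shRNA7), 1.83 (no doxycycline) and 1.85 (doxycycline). The last 1 kb inside the gene alone gave 1.89, 1.57 and, with doxycycline, 2.15. Genes of 10 to 50 kb gave 1.32, 1.18, 2.04 and 1.96 in the same order. A peak that touches the window gave 1.65 upon shRNA7. Each ratio was above 1 in these settings, although the interval of the shRNA7 ratio of 1.12 (0.932 to 1.36) holds 1. The doxycycline fold was below 1 in each, and its interval at equal list length (0.865 to 1.07) holds 1. In the control the ratio was 1.76 with a score of at least 100, 2.16 with an enrichment of at least 10 and 2.12 in genes of 10 to 50 kb.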
